A study of Fragaria x ananassa with 3 samples.

Results

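The miR395 set of strawberry fruit consisted of the 3 miRNA names of the deposited small RNA table that belong to the family miR395, of 1310 names in all and of 85 names of known miRNAs. They are mdm-miR395a, mdm-miR395i_R+1 and cme-MIR395a-p5_1ss11GT, where the first letters give the species of the matching miRBase entry (mdm for apple, cme for melon) and the end of a name gives the difference from that entry. Another name, PC-5p-395_7852, has the same digits only as a serial number and was not counted. The rule used names only and no read number.

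Small RNAs were sequenced from postharvest fruit of Fragaria x ananassa, cultivar Zhangji, kept at 20 °C and about 85% relative humidity for 24 h and for 0 h. There was 1 library for each storage time, with 2998588 raw reads on the listed names at 24 h and 3006293 at 0 h. A degradome library, which records the 5′ ends of cleaved mRNAs, came from a mixture of both storage times. How many fruits went into a library, and which parts of them, is not stated. The labels name only strawberry fruit and no cell type. A different share of cells of one type and a different amount of RNA per cell therefore cannot be told apart.

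In plants, miR395 is the miRNA family best known for sulfate. In Arabidopsis it accumulates when sulfate is short, and it guides the cleavage of mRNAs of ATP sulfurylases, the enzymes that activate sulfate in the first step of its assimilation, and of a low-affinity sulfate transporter. The functional strand comes from the 3′ arm of a hairpin precursor, and the strand from the 5′ arm is its partner in the duplex that is cut out of the hairpin.

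The 3 mature sequences are shown because strand, seed and length separate the names. They are written 5′ to 3′, and the capitals mark the seed, bases 2 to 8.
mdm-miR395a: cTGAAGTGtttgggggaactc
mdm-miR395i_R+1: cTGAAGTGtttgggggaactca
cme-MIR395a-p5_1ss11GT: gTTCCCTTgatcacttcattg

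Both 3p names had the seed TGAAGTG, and no other of the 1310 names had it. The seed of the 5p name, TTCCCTT, was found in no other name either. mdm-miR395a is 21 nt long and was identical to its apple entry in miRBase. mdm-miR395i_R+1 is 22 nt long and is the same sequence with an A added at the 3′ end. The 5p name is 21 nt long and differed from its melon entry by G11T, with positions counted from 1 at the 5′ end and the miRBase base first. Both 3p names began with C, which was the first base of 10 of the 85 known names (11.8%), whereas 43 (50.6%) began with T. The 5p name began with G, like 17 known names (20.0%).

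Each of the 3 names was listed with 1 precursor, and the precursors are at 2 loci of the same scaffold, scf0513158, of the Fragaria vesca genome 1.0. The locus on the plus strand runs from 3267483 to 3267743 and was listed for mdm-miR395a. The locus on the minus strand runs from 3272626 to 3272886 and was listed for both mdm-miR395i_R+1 and the 5p name. Between these spans lie 4882 bases. Each span has 261 bases and is longer than the precursor sequence given for it. The precursor sequences given by the study are shown to compare the strands of the loci, with each locus's 5p and 3p strands in capitals.
precursor on the plus strand: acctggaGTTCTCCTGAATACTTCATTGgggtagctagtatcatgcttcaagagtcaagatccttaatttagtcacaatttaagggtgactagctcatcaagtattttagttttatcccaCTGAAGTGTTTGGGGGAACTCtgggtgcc
precursor on the minus strand: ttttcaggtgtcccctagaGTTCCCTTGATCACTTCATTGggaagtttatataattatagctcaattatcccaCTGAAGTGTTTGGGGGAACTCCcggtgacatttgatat

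The 21 bases of mdm-miR395a were found without a mismatch in both precursors, at bases 121 to 141 on the plus strand and 74 to 94 on the minus strand. Reads of this name can therefore not be divided between the loci. mdm-miR395i_R+1 matched neither precursor over its full length. Its last base differed by T22A on the plus strand and by C22A on the minus strand, where the precursor base comes first and positions are counted from the 5′ end of the miRNA. The 22-base 3p strand that the precursor on the minus strand encodes was listed under no name. The 5p name matched bases 20 to 40 of the precursor on the minus strand exactly and differed from the other precursor by T5C, C7T, A11T and T12C. The 5p strand of the plus-strand locus, gttctcctgaatacttcattg, was listed under no name. The 5p name is thus the only one of the 3 that by its sequence matches just 1 of the listed Fragaria vesca loci. Further copies in Fragaria x ananassa were not searched for.

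Both precursors folded into a single long hairpin in RNAfold. The precursor on the plus strand has 149 bases, with a minimum free energy of -66.0 kcal/mol, 56 base pairs and 92 bases between the strands. The one on the minus strand has 111 bases, -51.2 kcal/mol, 42 base pairs and 33 bases between the strands. Per 100 bases the energies were -44.3 and -46.1 kcal/mol. Of the 21 bases of the 5p strand, 18 were paired with bases of the 3p strand on the plus strand and 17 on the minus strand. The predicted 3′ overhangs were 2 bases at both ends of the duplex on the plus strand. On the minus strand they were 3 bases for the 22-base 3p strand and 2 for the 5p strand.

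**Figure D1:**
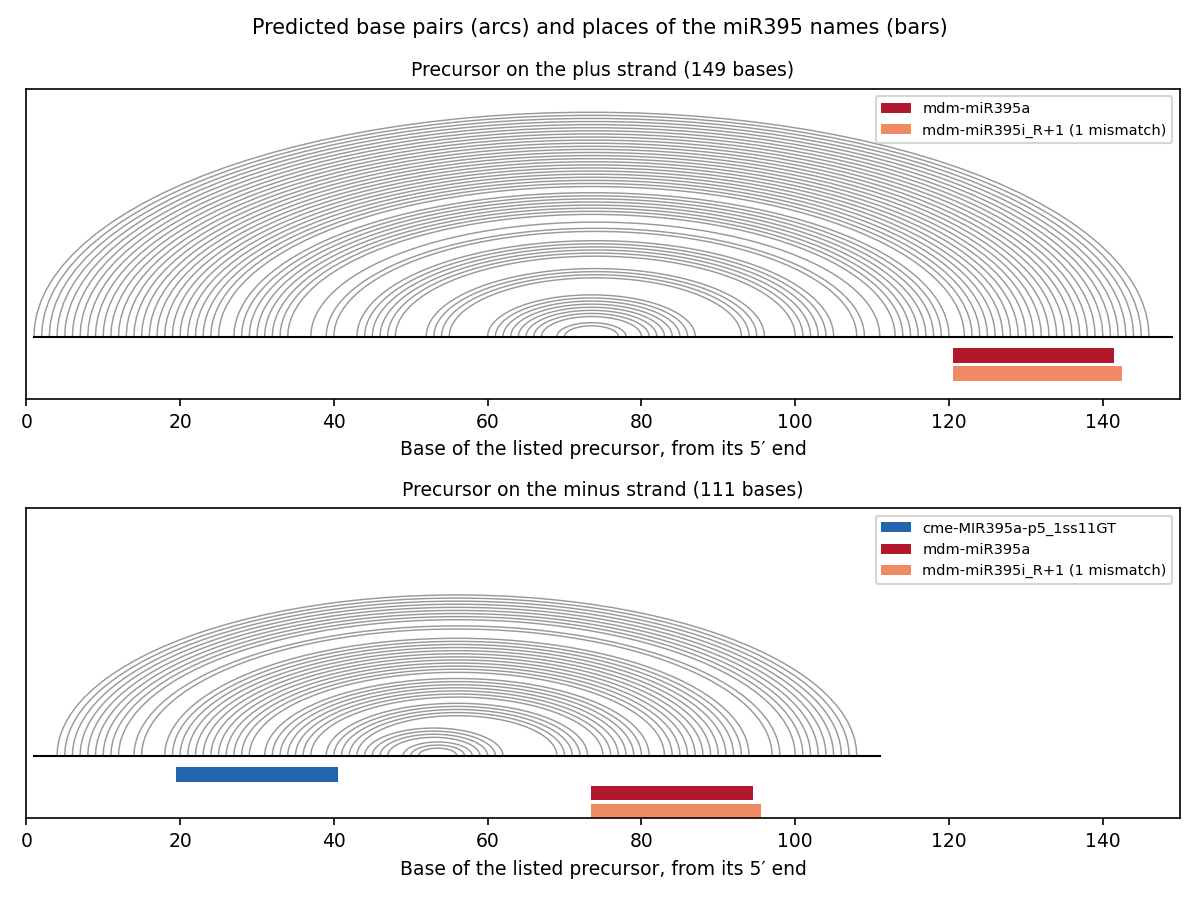
Predicted base pairs (arcs) of the precursors on the plus strand (above) and on the minus strand (below) against the position in bases from the 5′ end, with bars where the miR395 names match. mdm-miR395a matches both precursors, and the 5p name only the one on the minus strand, at bases 20 to 40. The bars of mdm-miR395i_R+1 on both precursors include 1 mismatch, at its last base.

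All 3 miR395 names had more reads in the fruit stored for 24 h. Each fold divides the normalized reads at 24 h by those at 0 h, and a name was counted as higher or lower past a 2-fold difference, if either library held 10 or more raw reads of it. With 1 library for each time there is no replicate check. Intervals are exact at the 95% level and cover counting error only, not the differences between fruits or between libraries. Those of folds were computed from raw reads scaled by the library factors, not from the deposited normalized reads.

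mdm-miR395a, the 21 nt guide strand, was read 859 times (803 to 918) at 24 h and 268 (237 to 302) at 0 h. After normalization these were 727 reads at 24 h and 245 at 0 h, a fold of 2.97 (2.58 to 3.41) or 1.57 on the log2 scale. By raw reads it was 42nd of the 1310 names at 24 h and 91st at 0 h.

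mdm-miR395i_R+1, the 22 nt form, had 40 raw reads (28.6 to 54.5) at 24 h and 15 (8.4 to 24.7) at 0 h. Its normalized reads were 34 at 24 h and 13 at 0 h, a fold of 2.62 (1.33 to 4.8). Raw reads times the library factors, on which the interval rests, gave a fold of 2.46. The 5p name, the partner strand, had 44 raw reads (32 to 59.1) at 24 h and 20 (12.2 to 30.9) at 0 h. Its normalized reads were 37 at 24 h and 18 at 0 h, a fold of 2.06 (1.17 to 3.64), just past the threshold. Adding 1 read to both values gave 2.0, which is no longer past it. The intervals of both low names included folds under 2, and that of mdm-miR395a did not.

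**Figure D2:**
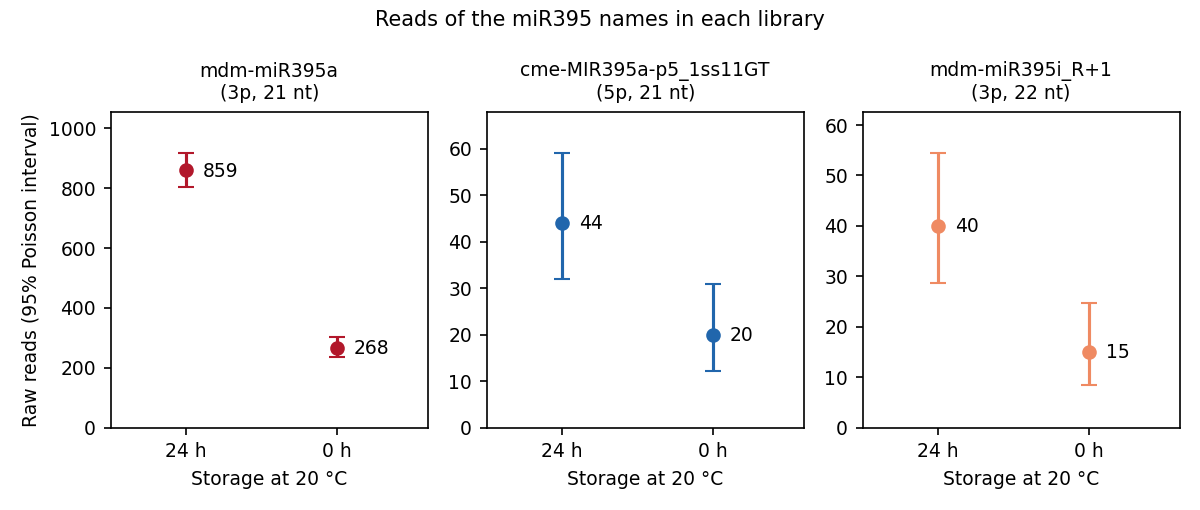
Raw reads of the 3 miR395 names at 24 h (left) and 0 h (right) of storage, with 95% Poisson intervals and a separate vertical axis for each name. mdm-miR395a had 859 reads at 24 h and 268 at 0 h, and its intervals do not overlap, nor do those of mdm-miR395i_R+1 and of the 5p name.

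Of the 1248 names that passed the filter, 78 (6.25%) were higher and 46 (3.69%) were lower at 24 h, so the 3 of 3 miR395 names stand against a background of 6.25%. The 3 are not independent cases. The longer 3p name is the shorter one plus an A, and the 5p name is a partner strand. Without scaling between the libraries the counts were 96 higher and 35 lower, and with scaling by the total of listed reads 109 higher and 35 lower. Against the deposited normalization these choices change the ratio between the libraries by 0.115 and 0.119 on the log2 scale. Of the 84 known names that passed, 10 (11.9%) were higher, and miR395 gave 3 of the 10. The names were then divided by depth. Of 212 names that reached 100 raw reads in either library 10 (4.72%) were higher, and mdm-miR395a was 4th by fold among them. Of 1036 names under 100 raw reads 68 (6.56%) were higher, and mdm-miR395i_R+1 was 27th and the 5p name 68th by fold. The counting interval lay wholly above 2-fold for 9 of the 1248 names (0.721%), mdm-miR395a among them and the other 2 miR395 names not.

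**Figure D3:**
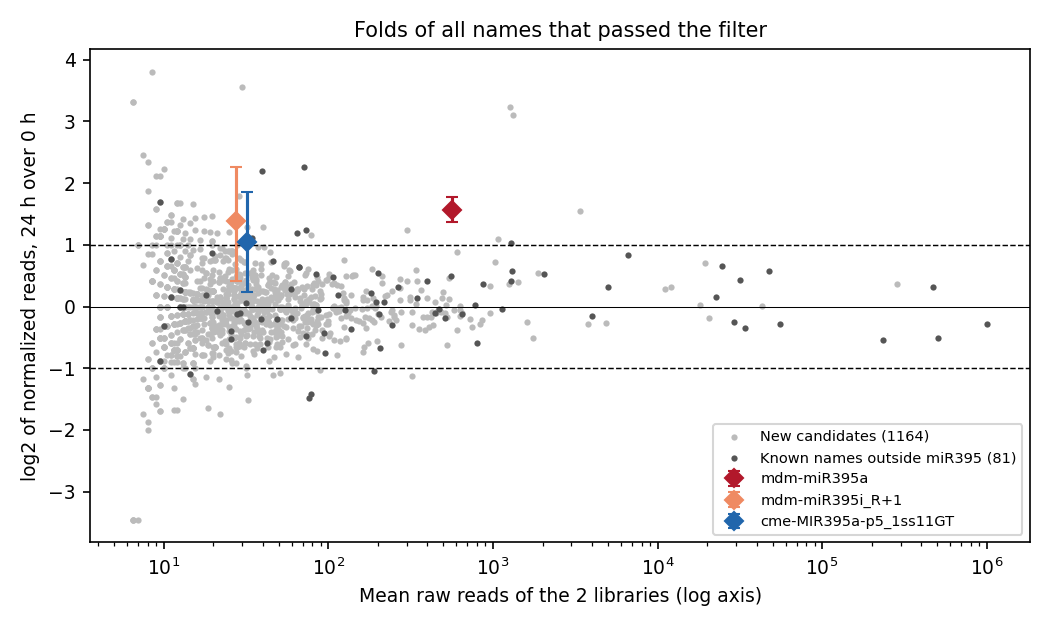
Log2 of the normalized reads at 24 h over 0 h against the mean raw reads of both libraries (log axis) for the 1248 names, with the miR395 names as diamonds with 95% counting intervals and dashed lines at the 2-fold threshold. mdm-miR395a, at a log2 fold of 1.57, lies apart from most names of like depth, while names with few reads spread widely around 0.

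The summed miR395 reads were 943 at 24 h and 303 at 0 h, a share of 0.0314% at 24 h and 0.0101% at 0 h of all reads on listed names. The fold of the family was 2.89 (2.52 to 3.28), the 4th of 31 known families in order of fold. Above it were miR3627 with 4.81 (3.04 to 7.82), miR828 with 4.58 (2.56 to 9.26) and miR479 with 3.25 (1.1 to 14.3), all with wider intervals that overlap that of miR395. The next below was miR827 with 2.37 (1.65 to 3.51), which overlaps too, and then miR2109 with 2.04 (1.88 to 2.22), which does not. By level, miR395 was the 13th family at 24 h and the 17th at 0 h. Its neighbours at 24 h were miR169 with 959 raw reads (899 to 1020), not separable from the 943 (884 to 1010) of miR395, and miR1310 with 673 (623 to 726).

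**Figure D4:**
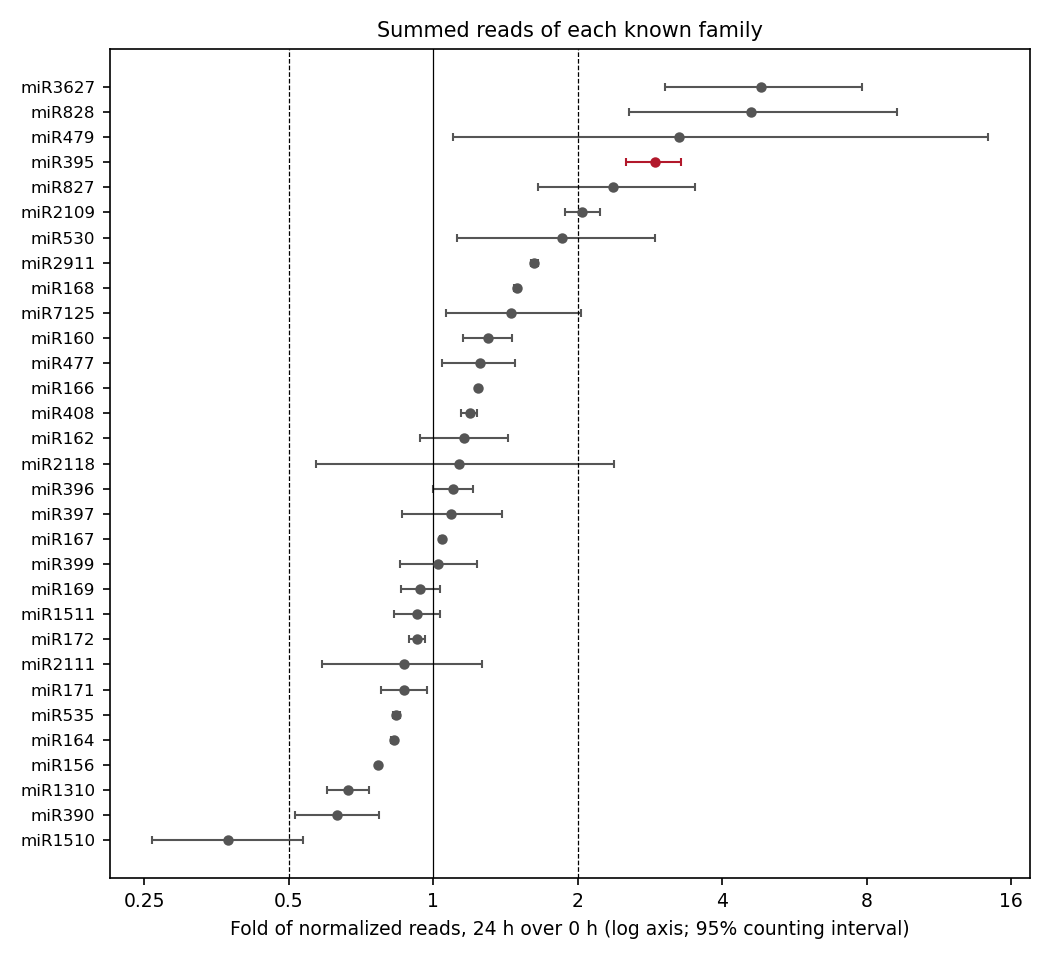
Fold of the summed normalized reads of the 31 known families, 24 h over 0 h (log axis), with 95% counting intervals, miR395 in red and dashed lines at the 2-fold threshold. miR395, with 2.89, is 4th from the top and has a narrower interval than the 3 families above it.

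The share of each form in the miR395 reads had overlapping intervals at both times. mdm-miR395a held 91.1% (89.1 to 92.8) of the miR395 reads at 24 h and 88.4% (84.3 to 91.8) at 0 h. The 22 nt form made up 40 of 899 reads of the 3p strand at 24 h, or 4.45% (3.2 to 6.01), and 15 of 283 at 0 h, or 5.3% (3.0 to 8.59). Taken on raw reads, its fold over that of the 21 nt form was 0.832 (0.441 to 1.65). The 5p strand made up 4.67% (3.41 to 6.21) of the reads at 24 h and 6.6% (4.08 to 10) at 0 h. Its fold, also on raw reads, was 0.686 times that of mdm-miR395a (0.388 to 1.25) and 0.825 times that of the 22 nt form (0.343 to 1.96). Each of these 3 intervals includes 1, and each also includes differences of over 1.5 times, so the counts do not show that the forms moved alike. When the 5p strand was set only against the other name of its listed precursor, its share was 52.4% (41.2 to 63.4) at 24 h and 57.1% (39.4 to 73.7) at 0 h. This share leaves out mdm-miR395a, which matches the same precursor without a mismatch. It therefore depends on which names were listed and is not the strand share of the hairpin.

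A sequence and the same sequence plus 1 base at the 3′ end were both listed in 28 pairs of names, 3 of them known, and in 9 pairs the added base was A. The miR395 pair was the only 1 of the 28 (3.57%) in which both names were higher at 24 h. In miR395 the longer form had 0.0466 reads per read of the shorter one at 24 h and 0.056 at 0 h. In the pair with most reads, mdm-miR166a_R+1 and mdm-miR166e, of the miR166 family that acts on leaf polarity genes, the ratio was 0.00462 at 24 h and 0.00397 at 0 h. In mdm-miR167b_R+1_1ss21AG and mdm-miR167g_1ss21AG, of the miR167 family that acts on auxin response factors, it was 0.0179 at 24 h and 0.0172 at 0 h.

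Of 193 precursors with 2 names that both passed the filter, 4 (2.07%) had both names higher, and none had both lower. The miR395 precursor on the minus strand was 1 of the 4 and the only one among 25 precursors of known miRNAs. The other 3 were precursors of new candidates, PC-5p-410_7468 with PC-3p-387861_10, PC-5p-1132739_4 with PC-3p-291222_13, and PC-5p-138174_26 with PC-3p-106225_33. The log2 folds of the 2 miR395 names differed by 0.35, and the median over the 193 precursors was 0.37.

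The names of other families known for plant nutrition were read in the same way. miR399, miR827 and miR2111 are known for phosphate, and miR397 and miR408 for copper, while miR398 and miR857, also known for copper, had no name in the table. Of the 10 names of these families that passed the filter, 1 was higher and none was lower, beside 10 higher of the 84 known names (11.9%) and 78 higher of all 1248 (6.25%). Their median log2 fold was 0.06, that of the known names 0.04 and that of all names 0.0.

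Among the phosphate names, csi-miR827, which in Arabidopsis acts on a gene of phosphate homeostasis, was read 106 times at 24 h and 41 times at 0 h, a fold of 2.37 (1.65 to 3.51). mdm-miR399i, of the family that in Arabidopsis acts on the ubiquitin-conjugating enzyme of phosphate homeostasis, was read 206 times at 24 h and 181 times at 0 h, a fold of 1.05 (0.856 to 1.29). The folds of mdm-miR399a_1ss1TA and mdm-miR399e were 1.11 (0.439 to 2.86) and 0.865 (0.548 to 1.4). Those of mdm-miR2111a_R-1 and aly-MIR2111a-p5 were 0.692 (0.383 to 1.26) and 1.04 (0.6 to 1.72). The intervals of these 5 names all include 1.

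Among the copper names, mdm-miR408b_L-1R+1_1ss8AC, of a family that acts on mRNAs of copper proteins, was read 5727 times at 24 h and 4255 times at 0 h, a fold of 1.24 (1.19 to 1.29), while mdm-miR408b was read 1166 times at 24 h and 1108 times at 0 h, a fold of 0.971 (0.894 to 1.06). The folds of mdm-miR397a_L+1R-1 and mdm-MIR397b-p3_1ss7CT, of a family that acts on laccases, were 1.14 (0.871 to 1.5) and 0.923 (0.527 to 1.62). None of the 4 passed the 2-fold threshold.

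**Figure D5:**
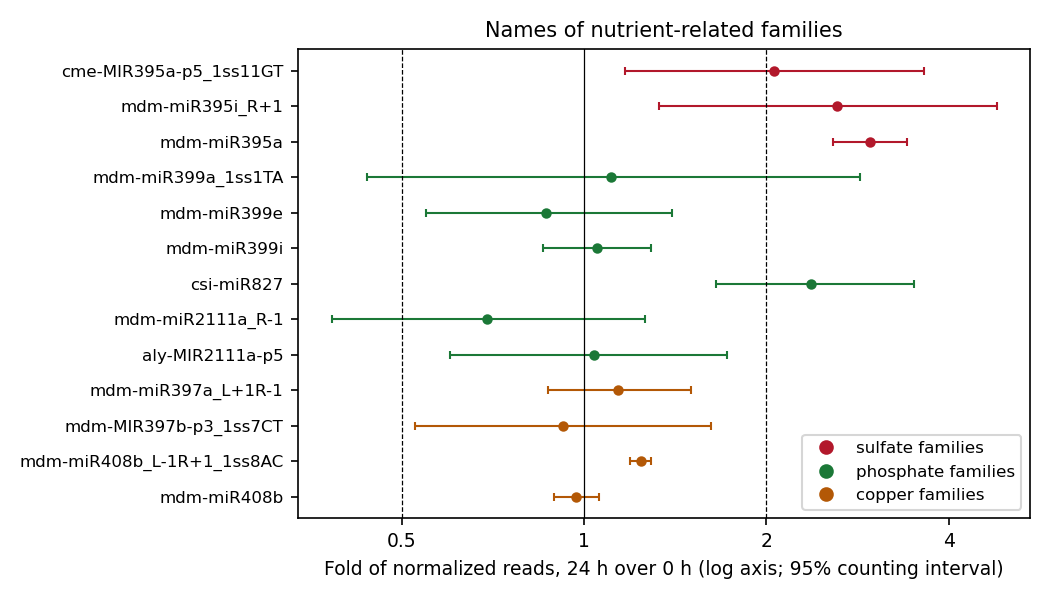
Fold of normalized reads, 24 h over 0 h (log axis), of the 13 names of families known for sulfate (red), phosphate (green) and copper (brown), with 95% counting intervals and dashed lines at the 2-fold threshold. The 3 miR395 names and csi-miR827 lie above 2-fold, and the other 9 names between 0.692 and 1.24.

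By its fold, mdm-miR395a was nearest to the new candidate PC-5p-410_7468, read 5149 times at 24 h and 1626 times at 0 h, with a fold of 2.92 (2.76 to 3.09), among the names that reached 100 raw reads. Next came csi-miR827 and the candidates PC-3p-8342_429 with 2.35 (1.97 to 2.83), PC-3p-45119_80 with 2.24 (1.57 to 3.21) and PC-5p-931_3343 with 2.15 (1.96 to 2.36). Among known names outside the miR395 family the nearest were csi-miR479_1ss12TG with 3.25 (1.1 to 14.3), csi-miR827 and mdm-MIR160a-p3_1ss7AG, a 3p strand of the miR160 family, with 2.29 (1.55 to 3.46). Likeness is the difference of log2 folds, here over only 2 libraries.

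In the degradome, miR395 had 1 of the 152 listed pairs of miRNA and target, which cover 103 genes. The pair was mdm-miR395a with gene29029-v1.0-hybrid, annotated in the table as a protein of the pseudouridine synthase/archaeosine transglycosylase-like family. The site spans bases 334 to 354 of the mRNA, and cleavage was placed at base 345, opposite base 10 of the miRNA, as in 139 of the 152 pairs (91.4%). The alignment score, a penalty for mismatches, was 3.5, and 71 pairs had a lower score, 22 the same and 59 a higher one.

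The cleavage of gene29029-v1.0-hybrid was in category 0, in which the reads at the site are the single highest peak of the transcript, as in 48 pairs (31.6%). It rested on 4 normalized reads, a deposited value that need not equal a raw count. Over the 30 genes of category 0 these values were 1.5 to 110 with a median of 8, and 8 genes had fewer than 4. The p-value deposited for the pair, which comes from a binomial model with no stated adjustment, was 0.00142, and 2 pairs had a smaller one. Pairs with the same p-value were not counted, and the paper lists it for a miR164 pair with more reads at its site. As the degradome library mixed both storage times, it gives no comparison of 24 h with 0 h.

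mdm-miR395i_R+1 and the 5p name had no pair in the degradome table. No annotation of the table held a word of sulfate assimilation, and 1 gene only carried the family name of gene29029-v1.0-hybrid. In Arabidopsis some ATP sulfurylase genes have been annotated with this same family name, but whether gene29029-v1.0-hybrid encodes one was not tested. Of the other nutrient families, miR2111 had 2 pairs and miR399, miR827, miR397 and miR408 had 0.

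The study also designed qRT-PCR primers for mdm-miR395a, whose measurements are not analysed here. The last 6 bases of the reverse transcription primer pair with bases 16 to 21 of mdm-miR395a. The same bases are at 16 to 21 of mdm-miR395i_R+1, but counted from its added last A, 0 bases pair. The forward primer ends with bases 1 to 15, which both forms share.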

How the data were processed

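Small RNAs of fruit stored for 24 h and 0 h were sequenced in 1 library each, and a degradome in 1 library of the mixture. The authors made the raw counts with ACGT101-miR 4.2, removing adaptors, low quality, mRNA, Rfam and repeat sequences, keeping 15 to 32 nt and mapping to miRBase 19 and the Fragaria vesca genome 1.0. The deposited normalized scores are whole numbers close to the authors' reads times 1 factor per library (0.846 at 24 h, 0.917 at 0 h). They lie within 1 read of this product for 1308 of 1310 names in each library. They are not always its nearest whole number, and no source used here gives the formula. Alignment score, category, position and p-value of degradome pairs, and the signal in normalized reads at each site, are as deposited by the authors from CleaveLand 3.0 and ACGT301-DGE 1.0.

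Names repeated over 1431 entries were counted once. Folds use normalized reads, names with under 10 raw reads in both libraries were left out, and a name was called beyond a log2 fold of 1 in either direction. A floor of 3 raw reads stands for a count of 0, which no miR395 name had. Intervals are Poisson for counts, Clopper-Pearson for shares and conditional binomial for folds and their ratios. Ratios of folds and all intervals use raw reads, and the intervals of folds are scaled by the ratio of the library factors. Precursor sequences, positions and primers come from the study's supplementary tables, and the hairpins were folded with RNAfold (ViennaRNA 2.7.2). The members and lists were chosen with earlier results of these data known. Named miRNAs are miR395, the other nutrient families, the 5 nearest in fold among names with at least 100 raw reads and the 3 nearest known names, the 2 extended pairs with most reads, and the degradome gene of miR395; families beside miR395 in rank and precursors with both names higher were named after their values were seen. Scripts ran in Python 3.11.15 (numpy 2.4.6, pandas 2.3.3, scipy 1.17.1, matplotlib 3.10.9) and R 4.3.3, with TMM factors (edgeR 4.0.16) and size factors (DESeq2 1.42.0) as alternative scalings, and were tested on simulated data. No test across samples was made. A gene table of another cultivar has other identifiers and was not used.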

Additional observations from a re-analysis of the deposited data

How the results depend on the processing

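The alternatives were 5 other scalings, raw reads times the factor, pseudocounts of 1 and 5, filters of 0 and 50 raw reads, and a counting interval wholly beyond 2-fold. Over the 8 settings that change a fold, the family fold was 2.86 to 3.12, that of mdm-miR395a 2.93 to 3.21, that of mdm-miR395i_R+1 2.17 to 2.67 and that of cme-MIR395a-p5_1ss11GT 1.83 to 2.21. The last fell short of the threshold with pseudocounts of 1 (2.0) and 5 (1.83). With a pseudocount of 5, 31 names of the table were higher and 15 lower. With at least 50 raw reads, 409 names were left, with 14 higher and 7 lower, and 0 precursors had both names higher. Of miR395 1 name was higher, and of all nutrient families, miR395 included, 2 names were, mdm-miR395a and csi-miR827. With the interval wholly beyond 2-fold, 9 names were higher and 0 lower, 1 of miR395, and 0 precursors had both higher. The share of the 5p strand was 52.4% at 24 h and 57.1% at 0 h over the 2 names listed with its precursor. That share leaves out the reads of mdm-miR395a, which matches the precursor too. Of the 107 values recomputed, 92 kept their direction and side of the threshold or stayed within a tolerance of the main value. The tolerance for counts was wide. It let the miR395 names past the threshold fall from 3 to 2 with either pseudocount. It also let the higher names rise from 78 to 109 with scaling by the total of listed reads. Some values could hardly move, among them the single degradome pair, so the tally is no measure of robustness. Scaling by the mappable reads of each library, whose totals come from the paper's text, was added after the data were seen. Under it no call of miR395 changed, the family fold was 2.88, and 82 names were higher and 53 lower. No paired analysis was possible because each storage time has 1 library, which also leaves no replicate to leave out. Depth limits mdm-miR395i_R+1 and the 5p name, with 15 and 20 raw reads at 0 h, and the degradome pair with 4 normalized reads.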
